A study of Mus musculus with 2 samples.

Results

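The genes described here are 37 genes of the lysosome, taken by symbol from the 27998 genes counted in both libraries: 9 encode proteins of the lysosomal membrane, 13 proteins of its lumen and 14 subunits or accessory proteins of the V-ATPase, and the last is Tfeb. All 37 had at least 1 UMI (unique molecular identifier, the count of 1 captured RNA molecule) in each library. In microglia-like cells 35 of them reached 20 CPM (UMIs of the gene in 1000000 UMIs of the class) in at least 1 library, the minimum for a ratio between libraries. Gla and Atp6v0c did not, and are given as levels only. The rule that picks the members uses symbols and no measured value, but the list itself was chosen with earlier results of these data known.

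The lysosome is the acidic organelle in which a phagocyte breaks down what it has taken up. The V-ATPase is a rotary proton pump: its cytosolic V1 sector hydrolyses ATP and its membrane-embedded V0 sector carries the protons into the lumen, where acid hydrolases split glycans, lipids and proteins. The transcription factor TFEB drives many of these genes through an E-box known as the CLEAR element, and microglia, the phagocytes of the spinal cord, are known for a large lysosomal compartment.

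Cells came from spinal cords of C57BL/6J mice of the strain Cx3cr1-CreERT2-YFP::flxRunx1, given for both libraries, and yellow fluorescent cells were sorted for 10x Chromium 3′ single-cell RNA sequencing. The mice labelled wild type had received vehicle, and those labelled Runx1 knock-out had received tamoxifen by intraperitoneal injection, 1 mg on each of 5 days, and all were taken 4 weeks after the first injection. These are called the vehicle library and the knock-out-labelled library here. The Cre recombinase is driven by Cx3cr1, a gene of microglia and other mononuclear phagocytes, and 1 library alone had tamoxifen, so the drug and the recombination cannot be told apart. Tissue of both groups was digested with collagenase for 30 min at 37 °C before sorting, and how many animals went into each library is not stated in the labels. There was 1 library per group: no test was possible, and the spread between animals is unknown. Every interval, given in parentheses at 95%, covers counting error only. A ratio is always that of the knock-out-labelled library to the vehicle library, on the log2 scale.

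The vehicle library held 4582 cells and 37446978 UMIs, and the knock-out-labelled library held 2596 cells after filtering, from 13075939 UMIs in its 2604 barcodes; 9 barcodes occurred in both. Microglia-like cells, named from 12 markers of which all were detected, made up 2184 (47.7%) and 1353 (52.1%) cells. Endothelial-like cells made up 1634 (35.7%) and 838 (32.3%) although the sort was for a Cx3cr1 reporter, and pericyte- or smooth-muscle-like cells 193 and 138. The microglia-like cells of each library lay almost wholly in a cluster of their own, as did most endothelial-like cells, so a difference between the libraries in processing cannot be told apart from one in genotype. Runx1 itself was not lower in the microglia-like cells of the knock-out-labelled library, at 181 CPM against 92.6 CPM; 3′ tags do not show whether a floxed exon is gone. Endothelial markers summed to 6559 CPM in the vehicle and 2217 CPM in the other library's microglia-like cells, and microglia markers to 12483 and 5033 CPM in endothelial-like cells. Both libraries therefore held RNA of each class in the other, more of it in the vehicle library, and its values stand beside the results below.

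Promoters of 32 of the 37 members were found in RefSeq (GRCm38.p6), as 300 bases from 250 before to 50 after the start of the gene. They are shown because Tfeb is among the members, and the element bound by its protein is the sequence feature that these genes are best known to share. The 8 letters TCACGTGA, which read the same on both strands, occurred in 5 of the 32 promoters (15.6%) and in 304 of 27025 promoters of all genes (1.12%). The core CACGTG, which the longer motif contains, occurred in 9 of 32 (28.1%) against 2187 of 27025 (8.09%). In promoters of other lysosomal genes, a list described below, the longer motif occurred in 5 of 51 (9.80%) and the core in 13 of 51 (25.5%). By group, the core was found in 4 of 11 V-ATPase, 3 of 12 lumenal and 2 of 8 membrane promoters. The members with the longer motif were Mcoln1, Atp6v0d1, Atp6v1a, Atp6v0e and Gla, and Lamp1 had the most copies of the core, 4, while Atp6v0b, Mcoln1 and Gla had 2 each. Each run below reads 5′ to 3′ on the strand of the gene, with the motif in capitals, first the bases before the start of Lamp1 (chr8:13159011-13159160, plus strand) and Atp6v0b (chr4:117887334-117887479, minus strand) and then 28 bases around the longer motif of Mcoln1 (chr8:3500463-3500490, plus strand), Atp6v0d1 (chr8:105566051-105566078, minus strand), Atp6v1a (chr16:44139374-44139401, minus strand) and Atp6v0e (chr17:26676388-26676415, plus strand).
Lamp1: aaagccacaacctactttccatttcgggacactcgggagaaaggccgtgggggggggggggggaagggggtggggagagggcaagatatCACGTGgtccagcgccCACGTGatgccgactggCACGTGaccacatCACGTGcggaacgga
Atp6v0b: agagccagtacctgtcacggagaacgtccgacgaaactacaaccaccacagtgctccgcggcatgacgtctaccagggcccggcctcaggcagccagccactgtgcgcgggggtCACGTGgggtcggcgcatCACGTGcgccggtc
Mcoln1: ggcgccccgcTCACGTGAccgcggcgca
Atp6v0d1: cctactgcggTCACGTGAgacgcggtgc
Atp6v1a: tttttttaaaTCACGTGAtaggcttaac
Atp6v0e: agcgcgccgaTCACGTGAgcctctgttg
A match of letters is a description of the sequence and not a binding site. The 8 measured members with the core did not share a direction in microglia-like cells, where their ratios ran from -0.34 for Glb1 to 0.46 for Atp6v1a.

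As measured in microglia-like cells, most members stood at nearly the same level in both libraries, and the tetraspanin gene Cd63 was the 1 member past 1.5-fold. None of the 35 measured members was at least 1.5-fold higher in the knock-out-labelled library, against 8.11% of the 5756 measured genes, and 1 of 35 was at least 1.5-fold lower, against 12.4%. The ratio was above 0 for 17 of 35 members (48.6%), close to the 46.5% of all measured genes. The median ratio as measured was -0.040 for the members and -0.038 for all measured genes. By group the median was 0.014 for membrane, -0.011 for lumenal and -0.077 for V-ATPase members. Their summed levels in the vehicle and the other library were 4274 and 3923 CPM for the membrane group, 6042 and 5704 CPM for the lumenal group and 3126 and 2738 CPM for the V-ATPase. With Tfeb, the 37 members made up 13487 CPM of the vehicle and 12406 CPM of the other library's microglia-like cells. With cells thinned to 1500 UMIs each, 2 members passed 1.5-fold downward and 1 upward, and with the estimated free RNA subtracted 2 passed in each direction. Cd63 was among the lower ones both times. The share of all measured genes past 1.5-fold is given for the main setting only, so these counts have no background beside them. After the subtraction the median ratio was -0.13 for the 35 members and 0.035 for the 5279 measured genes, so the medians no longer matched.

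**Figure D1:**
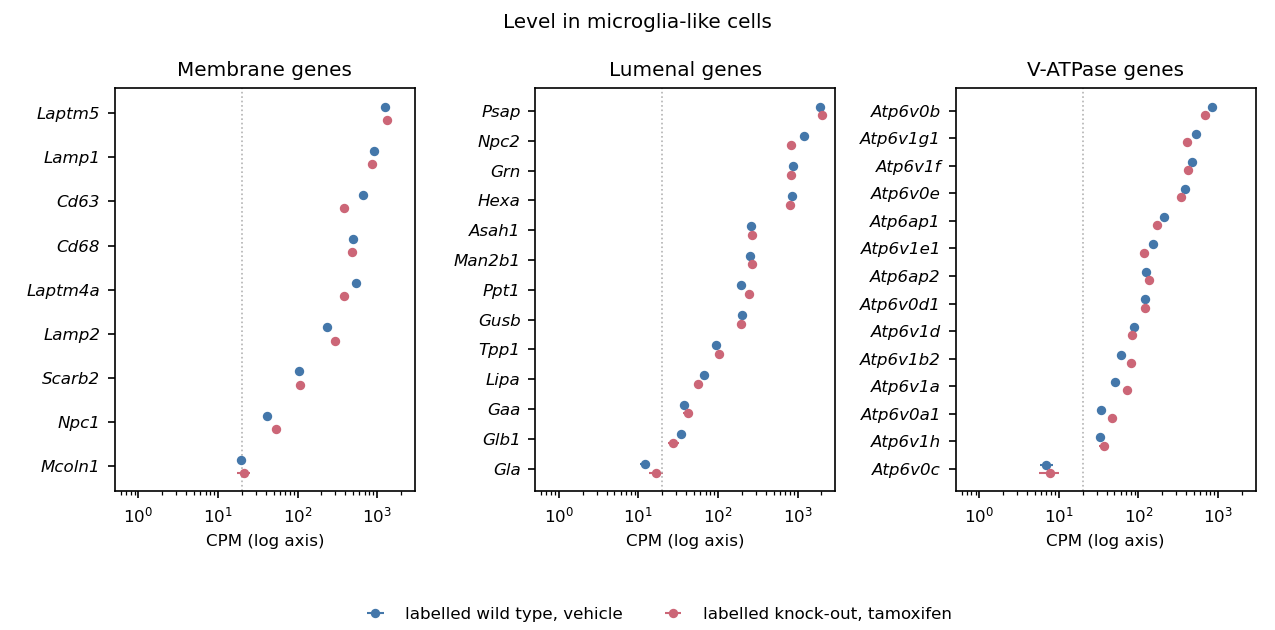
Level of 36 members in microglia-like cells, in CPM on a log axis, by role; points are the 2 libraries, bars the 95% counting interval and the dotted line the 20 CPM minimum. The libraries lie close together for most genes, and the widest separation is at Cd63, at 656 and 386 CPM.

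Cd63, a tetraspanin of late endosomes and lysosomes that is also carried on exosomes (ENSMUSG00000025351, chr10:128900989-128912822 on GRCm38), had 10353 and 2371 UMIs in the microglia-like cells of the vehicle library and the knock-out-labelled library. Its level was 656 CPM (644 to 669) in the vehicle library and 386 CPM (371 to 402) in the knock-out-labelled library. The ratio was -0.76 (-0.83 to -0.70), and it lay between -1.02 and -0.73 under every alternative computed. At equal depth of 1500 UMIs per cell, 58.1% and 35.4% of microglia-like cells had a Cd63 UMI, against 33.5% and 9.55% of endothelial-like cells. Without thinning the shares were 90.7% and 63.3% in microglia-like cells, at medians of 5530 and 3466 UMIs per cell, and 77.5% and 29.2% in endothelial-like cells, at medians of 5940 and 3594. Cd63 was thus detected in a smaller share of microglia-like cells of the knock-out-labelled library. At equal depth a lower level by itself lowers this share, so it is not a separate observation. The endothelial-like level of Cd63 was also lower in that library, at 263 and 77.8 CPM. In pericyte- or smooth-muscle-like cells Cd63 stood at 429 and 329 CPM, a ratio of -0.38 (-0.58 to -0.19), inside 1.5-fold.

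Among the other membrane members, Laptm5 and Lamp1 had the highest levels. Laptm5, a lysosomal transmembrane protein of haematopoietic cells (ENSMUSG00000028581, chr4:130913125-130936141), had 20065 and 8190 UMIs, or 1272 CPM (1255 to 1290.0) in the vehicle library and 1334 CPM (1306 to 1364) in the knock-out-labelled library. Its ratio was 0.069 (0.032 to 0.11). Lamp1, a heavily glycosylated protein that lines the inner face of the membrane (ENSMUSG00000031447, chr8:13159161-13175338), had 14239 and 5239 UMIs, or 903 CPM (888 to 918) in the vehicle library and 854 CPM (831 to 877) in the knock-out-labelled library, a ratio of -0.081 (-0.13 to -0.035). Cd68, a macrophage relative of the LAMP proteins, was level at 503 and 489 CPM. Lamp2, which also serves chaperone-mediated autophagy, stood at 232 and 294 CPM, a ratio of 0.34. Laptm4a, a broadly expressed relative of Laptm5, had the next lowest ratio to Cd63 among membrane genes, -0.50, at 541 and 383 CPM. Npc1, the cholesterol exporter of the lysosomal membrane, stood at 41.0 and 54.3 CPM, a ratio of 0.40 (0.21 to 0.60). Scarb2, the receptor that carries glucocerebrosidase to the lysosome, had 105 and 106 CPM. Mcoln1, a cation channel that releases lysosomal calcium, lay at the 20 CPM minimum with 19.7 and 21.0 CPM. No membrane gene other than Cd63 passed 1.5-fold, and ratios of both signs occurred among them.

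The lumenal group held the member with the highest level, Psap, the precursor of the saposins that help hydrolases to reach their lipid substrates (ENSMUSG00000004207, chr10:60277627-60302597). Psap had 30470 and 12396 UMIs in microglia-like cells, or 1932 CPM (1910.4 to 1954) in the vehicle library and 2019.8 CPM (1984 to 2056) in the knock-out-labelled library, a ratio of 0.064 (0.034 to 0.094). Npc2, which hands cholesterol to NPC1 (ENSMUSG00000021242, chr12:84754562-84773152), had 19189 and 5141 UMIs, or 1217 CPM (1199.6 to 1234) in the vehicle library and 838 CPM (815 to 861) in the knock-out-labelled library. Its ratio of -0.54 (-0.58 to -0.49) was the lowest of the lumenal group and stayed just inside 1.5-fold, which is 0.58 on the log2 scale. With the estimated free RNA subtracted, the Npc2 ratio was -0.70 and passed it. Grn, the precursor of progranulin (ENSMUSG00000034708, chr11:102430315-102437048), had 13783 and 5135 UMIs, or 874 CPM (859 to 889) in the vehicle library and 837 CPM (814 to 859.9) in the knock-out-labelled library, a ratio of -0.063 (-0.11 to -0.017).

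The 10 acid hydrolases summed to 2019 and 2010.0 CPM in microglia-like cells, a ratio of -0.0067 (-0.037 to 0.023). Hexa, a subunit of beta-hexosaminidase, held the largest share with 865 and 797 CPM. Asah1 (acid ceramidase) stood at 259 and 265 CPM and Man2b1 (lysosomal alpha-mannosidase) at 251 and 265 CPM. Gusb (beta-glucuronidase) had 201 and 193 CPM, and Ppt1 (palmitoyl-protein thioesterase) 196 and 243 CPM, the highest ratio of the measured hydrolases at 0.31. Tpp1, a tripeptidyl peptidase, had 95.6 and 104 CPM, and Lipa, the acid lipase of cholesteryl esters, 67.8 and 56.9 CPM. The enzymes with the fewest UMIs were Gaa (acid alpha-glucosidase) at 37.3 and 41.5 CPM, Glb1 (beta-galactosidase) at 34.8 and 27.5 CPM and Gla (alpha-galactosidase A) at 12.2 and 16.6 CPM. The Glb1 ratio of -0.34 (-0.60 to -0.087) came from 549 and 169 UMIs, and it was -0.64, past 1.5-fold, when cells were thinned. As each RNA molecule gives 1 tag at its 3′ end, these levels carry no term for gene length, but a gene whose 3′ end is poorly annotated is under-counted.

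For the V-ATPase, the summed ratio was -0.21 (-0.25 to -0.17) for the 5 V0 genes and -0.19 (-0.23 to -0.15) for the 7 V1 genes. Atp6v0b, a subunit of the proton-carrying ring (ENSMUSG00000033379, chr4:117884326-117887333), had 13411 and 4229 UMIs, or 850.4 CPM (836 to 865) in the vehicle library and 689 CPM (668 to 710.2) in the knock-out-labelled library, a ratio of -0.30 (-0.35 to -0.25). Atp6v0e, a small V0 subunit, had 6101 and 2115 UMIs, or 387 CPM (377 to 397) in the vehicle library and 345 CPM (330.1 to 359.6) in the knock-out-labelled library, a ratio of -0.17 (-0.24 to -0.10). Atp6v0d1, which joins the ring to the central stalk, had 1923 and 753 UMIs, or 122 CPM (117 to 128) in the vehicle library and 123 CPM (114 to 132) in the knock-out-labelled library, a ratio of 0.0089 (-0.11 to 0.13). Atp6v0a1, an isoform of the large V0 subunit that forms the proton channels, had the highest ratio of all measured members, 0.47 (0.26 to 0.68), from 528 and 285 UMIs and 33.5 and 46.4 CPM. It passed 1.5-fold when cells were thinned (0.62) and when the estimated free RNA was subtracted (0.69). Atp6v0c, the other ring subunit, had 110 and 47 UMIs and 6.97 and 7.66 CPM beside the much higher Atp6v0b; how its 3′ end was counted is not stated in the labels.

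Of the V1 sector, Atp6v1g1, a subunit of the peripheral stalk (ENSMUSG00000039105, chr4:63544772-63550750), had 8341 and 2530 UMIs, or 529 CPM (518 to 540.4) in the vehicle library and 412 CPM (396 to 429) in the knock-out-labelled library. Its ratio was -0.36 (-0.42 to -0.30). Atp6v1f, of the central stalk (ENSMUSG00000004285, chr6:29467718-29470512), had 7542 and 2565 UMIs, or 478 CPM (467 to 489) in the vehicle library and 418 CPM (402 to 434) in the knock-out-labelled library, a ratio of -0.19 (-0.26 to -0.13). Atp6v1e1, of the peripheral stalk, had 2420 and 732 UMIs, or 153 CPM (147 to 159.7) in the vehicle library and 119 CPM (111 to 128) in the knock-out-labelled library, a ratio of -0.36 (-0.48 to -0.24). Both subunits of the catalytic head had ratios on the other side of 0: Atp6v1a, which binds ATP, stood at 51.6 and 71.0 CPM, a ratio of 0.46 (0.29 to 0.63), and its partner Atp6v1b2 at 61.2 and 81.6 CPM, a ratio of 0.42 (0.26 to 0.57). Neither passed 1.5-fold, except Atp6v1a with the estimated free RNA subtracted, at 0.61. Atp6v1d, of the central stalk, had 87.0 and 82.4 CPM, and Atp6v1h, a regulator of the coupling of the sectors, 33.4 and 37.1 CPM. The 7 V1 genes thus had ratios on both sides of 0, and so did the 4 measured V0 genes.

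The accessory genes were on either side of 0 as well. Atp6ap1, needed for assembly of the pump, had 3299 and 1043 UMIs, or 209 CPM (202 to 216) in the vehicle library and 169.9 CPM (159.8 to 181) in the knock-out-labelled library, a ratio of -0.30 (-0.40 to -0.20). Atp6ap2, also known as the prorenin receptor, had 1950 and 836 UMIs, or 124 CPM (118 to 129) in the vehicle library and 136 CPM (127 to 146) in the knock-out-labelled library, a ratio of 0.14 (0.021 to 0.26). Tfeb, the transcription factor, had 713 and 252 UMIs, or 45.2 CPM (42.0 to 48.7) in the vehicle library and 41.1 CPM (36.1 to 46.5) in the knock-out-labelled library, a ratio of -0.14 (-0.35 to 0.07).

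A wider list of 65 other lysosomal genes had 38 measured in microglia-like cells, of which 25 had a ratio above 0, beside 46.5% of all measured genes, with a median of 0.11 against -0.038. All 65 summed to 13204 CPM in the vehicle and 15522 CPM in the other library's microglia-like cells, a ratio of 0.23 (0.22 to 0.24). At least 1.5-fold higher were 2 of the 38, beside 8.11% of all measured genes, and 2 were at least 1.5-fold lower, beside 12.4%. The higher ones were Arsb, which encodes arylsulfatase B, at 72.8 and 127 CPM and a ratio of 0.80 (0.67 to 0.93), and Mitf, a transcription factor related to TFEB, at 26.2 and 41.7 CPM and a ratio of 0.67 (0.44 to 0.90). The lower ones were Atp6v0e2, an isoform of the V0 e subunit, at 20.4 and 7.82 CPM and a ratio of -1.38 (-1.85 to -0.94), and Lamtor5, of the Ragulator complex that tethers mTORC1 to the lysosome, at 232 and 145 CPM and a ratio of -0.68 (-0.79 to -0.57). Among the other hydrolases and activators, 12 of 14 measured genes had a ratio above 0, beside the same 46.5%, with a median of 0.11.

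Within each library, membrane and lumenal genes had more RNA in microglia-like than in endothelial-like cells, whereas V-ATPase genes had about as much in both. The median quotient of microglia-like to endothelial-like level was 1.82 in the vehicle and 2.70 in the other library for the membrane genes, 1.93 and 3.05 for the lumenal genes, and 0.988 and 1.03 for the V-ATPase, beside 0.844 and 0.765 for all genes measured in either class. Microglia-like cells had the higher level for 7 of 9 membrane and 12 of 13 lumenal genes in each library, but for 6 of 14 and 8 of 14 V-ATPase genes. Of the 35 members that reached 20 CPM in either class, 23 in the vehicle and 26 in the other library were higher in microglia-like cells, against 33.5% and 33% of all measured genes. The difference between the groups was not tested. The hydrolases alone gave 1.98 and 2.98. Among the 4 main classes, erythrocyte-like cells included, 25 and 27 of the 37 members were highest in microglia-like cells. Of the 35 that reached 20 CPM in any of these classes, 23 (65.7%) and 25 (71.4%) were, beside 27.2% and 27.1% of all measured genes.

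Man2b1 had the highest quotient in both libraries (3.26 and 6.27 in the vehicle and the other library). It was followed in the other library by Laptm5 (2.38 and 6.24) and Cd68 (2.40 and 5.87). In the vehicle library Gla (2.70 there, from 12.2 and 4.52 CPM), Cd63 (2.50) and Asah1 (2.48) came next. No member reached 4-fold in both libraries. Psap gave 1.93 and 3.18, Hexa 2.06 and 4.48 and Grn 2.23 and 4.17. The membrane and lumenal genes with more RNA in endothelial-like cells in both libraries were Laptm4a (0.688 and 0.505), Mcoln1 (0.886 and 0.829) and Lipa (0.706 and 0.608). Within the V-ATPase, Atp6ap2 gave 1.93 and 2.29, Atp6v1b2 1.39 and 1.94 and Atp6v0b 1.32 and 1.89, while Atp6v1e1 gave 0.797 and 0.676 and Atp6v1d 0.794 and 0.752. Atp6v0d1 (0.996 and 1.00) and Atp6v1f (1.03 and 1.07) lay at nearly the same level in both classes. The pump therefore had subunits on either side of 1 in both libraries.

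**Figure D2:**
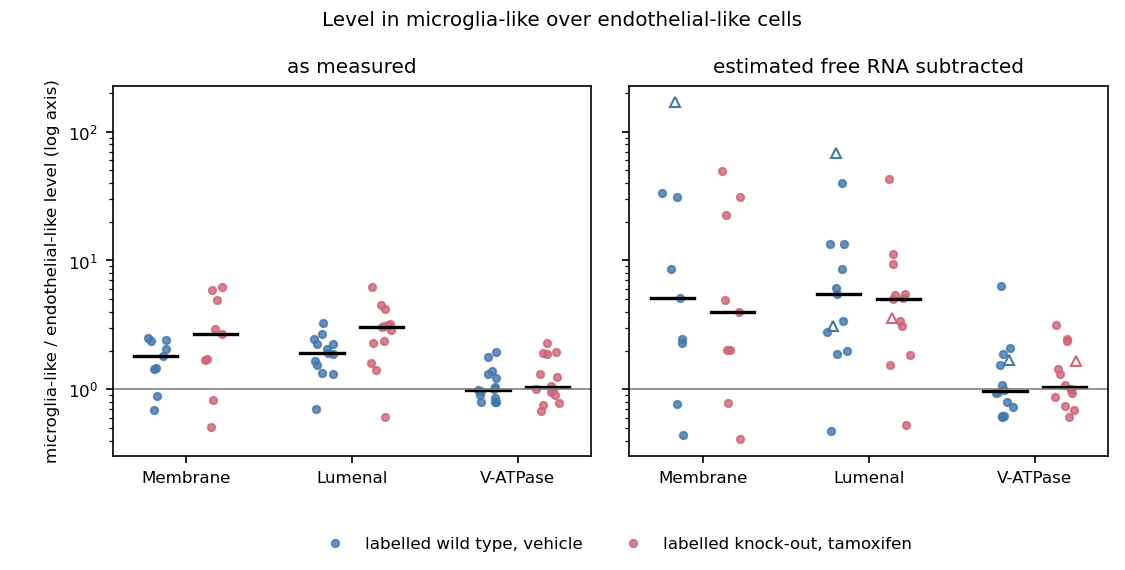
Quotient of the level in microglia-like cells to that in endothelial-like cells for each membrane, lumenal and V-ATPase member (log axis), as measured on the left and with the estimated free RNA subtracted from both classes on the right. Circles are genes, open triangles genes whose endothelial-like level was set to the 5 CPM minimum, and black bars the medians, which for the V-ATPase lie between 0.97 and 1.04 in all 4 sets.

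Free RNA moves with this contrast. If the endothelial markers found in microglia-like cells came wholly from free RNA of the same make-up as the library, that RNA was 50.6% of the UMIs of those cells in the vehicle library and 20.8% in the other; the microglia markers in endothelial-like cells gave 56.1% and 23.9%. With these shares subtracted, the median quotient was 5.08 and 4.01 for membrane genes, 5.50 and 5.03 for lumenal genes and 0.973 and 1.04 for the V-ATPase. The split between V-ATPase and the other genes was larger after the subtraction, and the libraries lay closer together for the lumenal genes. Removing the same library profile from both classes mostly moves a quotient further from 1, so the larger split follows from the construction. Psap gave 6.08 and 5.36, Hexa 8.52 and 11.2, Ppt1 5.50 and 5.15, Lamp1 2.46 and 2.00 and Atp6v0d1 0.993 and 1.00. Laptm4a (0.442 and 0.410), Mcoln1 (0.772 and 0.786) and Lipa (0.475 and 0.530) remained below 1.

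The quotient of endothelial-like to microglia-like level was also set beside that of the 12 microglia markers, which endothelial cells should lack. For the markers it ran from 0.177 to 0.492 in the vehicle library and from 0.0702 to 0.168 in the knock-out-labelled library. In the vehicle library 10 of 37 members lay within the markers' range, Lamp2, Cd63, Cd68, Laptm5, Gla, Gusb, Hexa, Man2b1, Grn and Asah1, and in the other library Laptm5 and Man2b1 did. Relative to their microglia-like level, the endothelial-like level of those members, in that library, is no higher than markers of another cell type reach there. No V-ATPase gene lay within the markers' range in either library, with a lowest quotient of 0.517 and 0.436. Lamp1 gave 0.680 and 0.590 and Npc2 0.606 and 0.436, above all markers in both libraries.

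In endothelial-like cells most members stood lower in the knock-out-labelled library as measured. Of 35 measured members, 10 (28.6%) were at least 1.5-fold lower, against 6.07% of the 6291 measured genes, and 0 were at least 1.5-fold higher, against 5.13%. The ratio was above 0 for 6 of 35 (17.1%) against 61.2%. The median was -0.29 for membrane, -0.56 for lumenal and -0.13 for V-ATPase members, with 0.089 for all measured genes. This order of the groups was not tested, and it depended on the processing: with cells thinned to 1500 UMIs the medians were -0.082, -0.81 and -0.22. The lower 10 were Cd63 (-1.76), Cd68 (-1.33), Laptm5 (-1.32), Hexa (-1.24), Npc2 (-1.01), Grn (-0.96), Man2b1 (-0.86), Atp6v0b (-0.83), Psap (-0.66) and Glb1 (-0.62). Cd68, for example, stood at 209 and 83.3 CPM and Laptm5 at 534 and 214 CPM. All 12 microglia markers were lower in the same cells too, and their sum had a ratio of -1.31, beside -1.33 for Cd68 and -1.32 for Laptm5. With the estimated free RNA subtracted, 30 members could still be measured, and the medians were 0.070 for membrane, 0.13 for lumenal and -0.22 for V-ATPase members, which made the V-ATPase the lowest group. For all 6086 genes measured in this setting the median was -0.011. Of the 30 members, 3 were at least 1.5-fold lower (Laptm5, Hexa and Atp6v0b) and 4 higher (Asah1, Lamp2, Gusb and Atp6ap2). The vehicle levels of the 4 after subtraction were low, at 8.49, 34.0, 19.2 and 24.3 CPM. The share of all measured genes past 1.5-fold is not given for this setting. Beyond that subtraction, the part of carried-over microglial RNA in this difference was not tested.

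**Figure D3:**
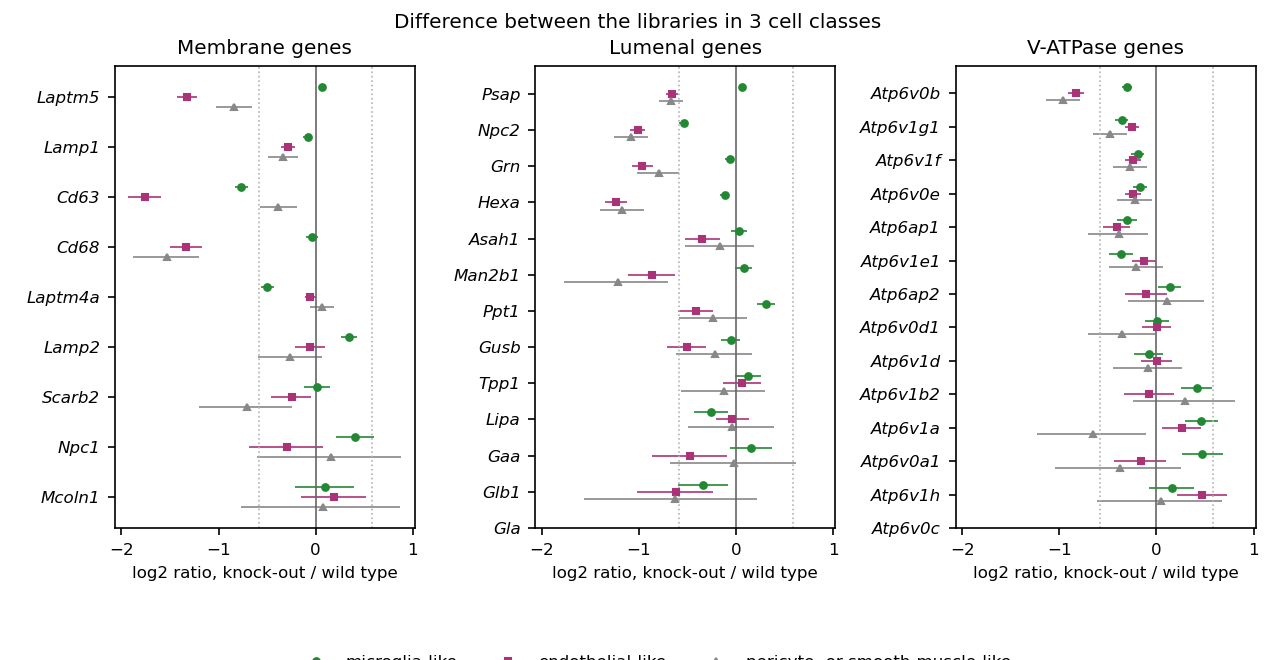
Log2 ratio of the knock-out-labelled library to the vehicle library for each measured member in 3 cell classes; bars are 95% counting intervals and dotted lines mark 1.5-fold. Microglia-like values lie within the dotted lines except Cd63, whereas 10 endothelial-like values lie below the lower line; Tfeb, Gla and Atp6v0c have no points.

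In pericyte- or smooth-muscle-like cells, far fewer in number, 12 of 35 members (34.3%) were at least 1.5-fold lower, against 7.7% of the 6712 measured genes, 0 were at least 1.5-fold higher, against 11%, and 6 had a ratio above 0 (17.1% against 56.5%). The median was -0.34 for membrane, -0.43 for lumenal and -0.27 for V-ATPase members, and 0.066 for all measured genes. Cd68 had the lowest ratio, -1.53 (-1.88 to -1.20), followed by Man2b1 at -1.22 (-1.77 to -0.70) and Hexa at -1.17 (-1.40 to -0.95). The microglia markers summed to 14270 CPM in the vehicle and 7513 CPM in the other library's cells of this class, a ratio of -0.93. Erythrocyte markers summed to 5771 and 17240 CPM there, and fibroblast or meningeal markers, all 7 of them higher, to 349.8 and 705 CPM, a ratio of 1.01. The part of these markers' cells or RNA in the difference was not tested. Tfeb was also at least 1.5-fold lower here, from 129 and 30 UMIs, a ratio of -0.86 (-1.48 to -0.28), but its difference between classes was not tested. The vehicle and the other library's cells shared a cluster here, unlike the microglia-like cells.

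These comparisons share the 2 libraries. Set side by side, microglia-like and endothelial-like cells shared Cd63 as a member past 1.5-fold. Laptm4a, by contrast, had a ratio of -0.50 in microglia-like cells and -0.054 in endothelial-like cells, where its level was higher, at 787 and 758 CPM. Among V-ATPase genes, Atp6v1a had ratios of 0.46 and 0.26 and Atp6v1h of 0.16 and 0.47 in the 2 classes. These were the V1 genes with the highest endothelial-like ratios.

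Counted per cell at an equal depth of 1500 UMIs, a microglia-like cell held a median of 20 member UMIs in the vehicle and 18 in the other library, and an endothelial-like cell 13 and 9. By group, the medians in microglia-like cells were 6 and 6 for membrane, 9 and 8 for lumenal and 5 and 4 for V-ATPase genes. In endothelial-like cells they were 4 and 3, 5 and 3, and 4 and 3. The middle 90% of microglia-like cells spanned 13 to 29 member UMIs in the vehicle and 11 to 28 in the other library. The variance of the member UMIs over cells was 1.19 and 1.53 times the mean in microglia-like cells and 1.00 and 1.06 times in endothelial-like cells, where counting alone gives about 1. For the V-ATPase it was 0.979 and 1.01 in microglia-like cells, so at this depth no spread between cells beyond counting was detectable in it. For the lumenal genes it was 1.17 and 1.36.

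**Figure D4:**
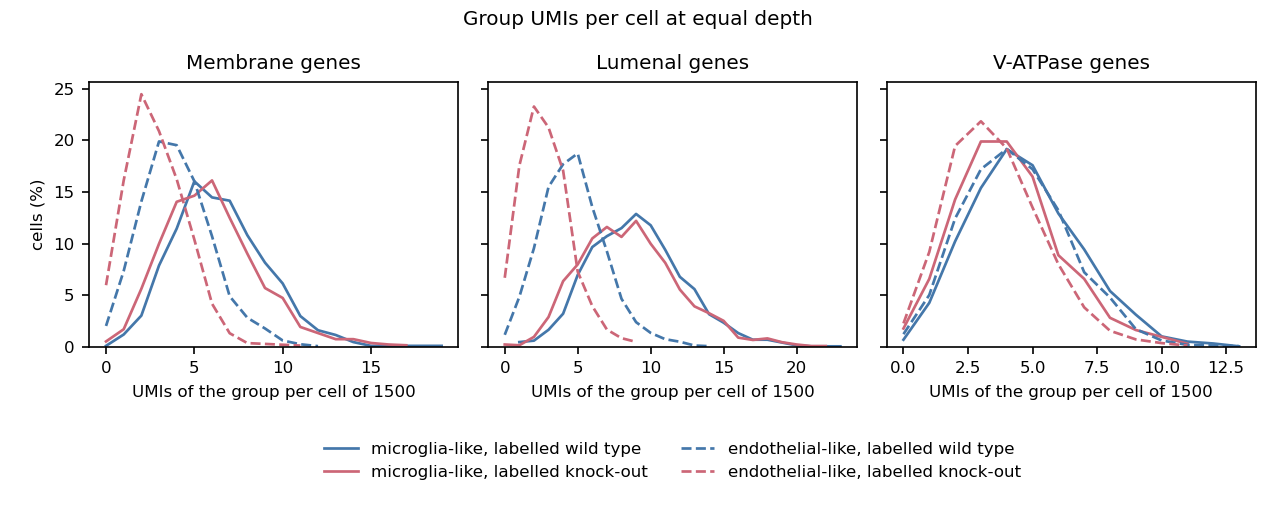
Share of cells (%) by the number of UMIs of each gene group per cell, after thinning every cell to 1500 UMIs; solid lines are microglia-like and dashed lines endothelial-like cells, and colours the libraries. The classes separate for membrane and lumenal genes, with lumenal medians of 9 and 8 against 5 and 3, and overlap for the V-ATPase.

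The microglia-like cells of each library fell into a pair of subclusters that differed in chemokine and cytokine genes, found without the lysosomal genes and told apart here by Ccl3, which was chosen after its values were seen. In the vehicle library 974 cells had 4440.0 CPM of the chemokine gene Ccl3 and 1191 cells had 2871 CPM. In the knock-out-labelled library 773 cells had 3412 CPM and 574 had 2170 CPM. Median UMIs per cell moved with this split, 7303 against 4450 and 3930 against 3045, and their part in it was not tested. The median member differed little between subclusters, with a high-Ccl3 over low-Ccl3 ratio of -0.066 and -0.073 in the 2 libraries, beside -0.063 and -0.056 for all measured genes. Of 35 members, 8 were higher in the high-Ccl3 subcluster in both libraries, 21 lower in both and 6 of different sign, and none was past 1.5-fold in both. Over all genes measured in both libraries, 23% were higher in both, 46.2% lower in both and 1.64% past 1.5-fold in the same direction in both.

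Cd63 stood out in both libraries, with 544 CPM in the low-Ccl3 and 741 CPM in the high-Ccl3 subcluster of the vehicle library and 301 CPM in the low-Ccl3 and 424 CPM in the high-Ccl3 subcluster of the other. The ratios were 0.45 and 0.50. Cd63 was nevertheless lower in both subclusters of the knock-out-labelled library than in either one of the vehicle library. Atp6v1a, the ATP-binding V1 subunit, was higher in the high-Ccl3 subcluster as well, with ratios of 0.32 and 0.67. Asah1, the acid ceramidase, was lower (-0.31 and -0.50), and so were Atp6ap2 (-0.44 and -0.24) and Laptm4a (-0.18 and -0.34). Laptm5 gave -0.16 and -0.28, Psap -0.066 and -0.27 and Cd68 -0.044 and -0.044. A difference of Cd63 between microglia-like subclusters was thus seen in each library, with the same sign and nearly the same size.

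**Figure D5:**
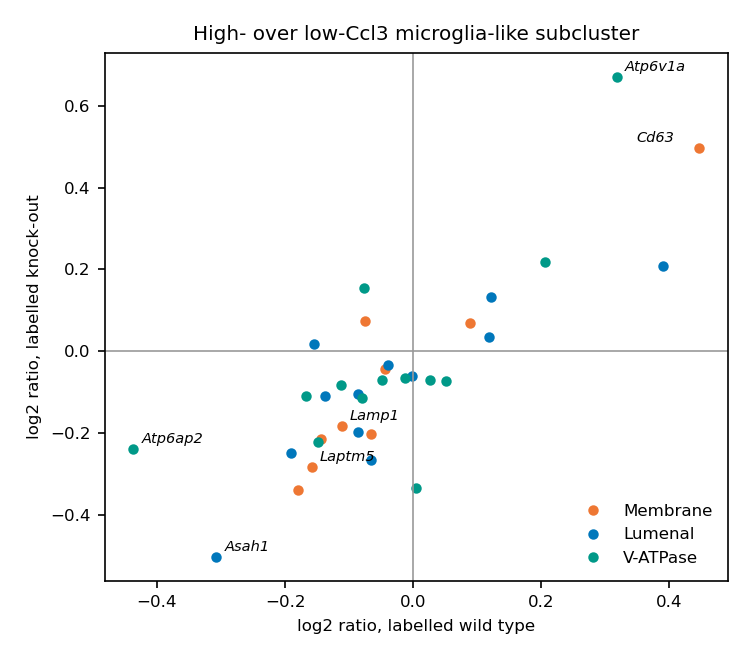
Log2 ratio of the high-Ccl3 to the low-Ccl3 microglia-like subcluster for each measured membrane, lumenal and V-ATPase member, in the vehicle library (horizontal) against the knock-out-labelled library (vertical). Cd63 and Atp6v1a lie at the upper right, and Asah1 and Atp6ap2 at the lower left.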

How the data were processed

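The authors deposited raw UMI counts per gene and barcode for each library, in filtered matrices; the gene and barcode lists hold other, non-numeric content. STAR, Cell Ranger 2.0.1, Seurat 2.1.0 and the builds mm10 and GRCm38.p5 are listed, without saying what each was used for, per the submitters' processing notes. The members and gene lists were chosen with earlier results of these data known.

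Barcodes under 300 genes or over 10% mitochondrial UMIs were left out, 8 in all. Both libraries were clustered together in scanpy 1.11.5 with leidenalg 0.10.2 (2000 variable genes without the lysosomal genes, Runx1 and sex-linked genes, 30 components, 15 neighbours, resolution 0.5, and 1.0 for subclusters), with no doublet removal in the main values. Clusters were named from 21 marker lists, with a scoring rule set after the clusters were seen; the study's own cell names may differ. UMIs were summed per class and library and divided by the total of the same cells (CPM). Median depth was 6376 and 3716 UMIs per barcode. Levels carry exact Poisson intervals, ratios exact conditional binomial intervals and shares are of cells. UMIs are molecules, but intervals leave out variation between animals. Every member was named, and given in full where it passed 1.5-fold in microglia-like cells, was among the 3 highest of its role group there, or differed 4-fold between microglia-like and endothelial-like cells in both libraries; of other lysosomal genes, those past 1.5-fold were named. The subtraction of free RNA from the class quotient and the marker quotient were added after the data were seen. The calculation was tested on simulated data. Alternatives changed the total, cell weight, depth, cell filter, doublets, minimum CPM, clustering, centring and free RNA. Positions are from GENCODE M21 (GRCm38).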

Additional observations from a re-analysis of the deposited data

How the results depend on the processing

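Of 100 recomputed summary values (medians and counts past 1.5-fold in microglia-like and endothelial-like cells, under 10 alternatives), 85 were classed as unchanged. For a median this meant lying inside an interval set around the main value, which could be wide. A count could also differ and be classed as unchanged. The 10 members at least 1.5-fold lower in endothelial-like cells were 8 at clustering resolution 1.0 and 11 with thinned cells, and both were classed so. The membrane median in endothelial-like cells, -0.29, was classed as unchanged at -0.082 with thinned cells, inside -0.46 to -0.043. Some alternatives could not move a value: with a 5 CPM minimum the same 9 membrane genes entered. With a 100 CPM minimum the median was -0.25 for V-ATPase members in microglia-like cells, and -0.80 for membrane and -0.81 for lumenal members in endothelial-like cells, where fewer genes entered. With cells thinned to 1500 UMIs the lumenal median in endothelial-like cells was -0.81; 1 member was at least 1.5-fold higher in endothelial-like cells (Atp6v1h), 1 was higher in microglia-like cells (Atp6v0a1) and 2 were lower there (Cd63 and Glb1). With the estimated free RNA subtracted, the membrane and lumenal medians were -0.16 and -0.22 in microglia-like cells and 0.070 and 0.13 in endothelial-like cells, where the V-ATPase median was -0.22. For all measured genes the medians under this setting were 0.035 in microglia-like and -0.011 in endothelial-like cells. Members past 1.5-fold were then 2 higher (Atp6v0a1 and Atp6v1a) and 2 lower (Cd63 and Npc2) in microglia-like cells, and 4 higher and 3 lower in endothelial-like cells. The share of all measured genes past 1.5-fold is given for the main setting only, so the counts under alternatives have no background beside them. The cause of these shifts was not tested beyond each alternative's own construction. Over the alternatives that can change a ratio, its sign was kept for 24 of 35 measured members in microglia-like cells and for 16 of 35 in endothelial-like cells; 4 more there (Cd63, Cd68, Gaa and Man2b1) kept it where measured, but had no ratio with free RNA subtracted. In microglia-like cells Cd63 lay between -1.02 and -0.73. No paired analysis was possible because there was 1 library per group, and no replicate could be left out. Gla and Atp6v0c were too shallow for a ratio, and an animal-level spread cannot be given.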

Other observations

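The members were also counted in small cell classes, with few cells behind each value. Cells like border-associated macrophages, which line vessels and meninges, had 11435 and 12625 CPM of member RNA in the vehicle library and the knock-out-labelled library, from 18 and 4 cells. Their name is uncertain: 4 of the 7 markers of that type counted, and markers of microglia and B cells also scored in the cluster. Oligodendrocyte-like cells, which make myelin, had 11718 and 10417 CPM from 18 and 8 cells, and ependymal-like cells, which line the central canal, 9906 and 7648 CPM from 17 and 26 cells. Erythrocyte-like cells, from a lineage that clears its organelles as it matures, had 7129.9 and 4733 CPM from 55 and 75 cells. They also held 11682 and 5424 CPM of microglia markers, a ratio of -1.11, and 14520 and 14033 CPM of endothelial markers, whose part in the member level was not tested. Their V-ATPase RNA stood at 2294 and 1711 CPM.

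A cluster of 438 and 136 cells that held markers of both microglia and endothelial cells was left unnamed and enters no comparison.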
